A study of Mus musculus with 16 samples.

Results

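The transport and metabolism genes of the kidney's proximal tubule were examined in RNA of glomeruli from mouse embryos, either wild type or wt1(+KTS) mutant. The set comprised 38 genes taken from a fixed list of names: endocytic receptors, apical and basolateral transporters, a transcription factor and a scaffold, peptidases, and enzymes of sugar, acyl-CoA and other metabolism. The rule that picks their clusters uses no difference between the genotypes, but the list was drawn up with earlier results of these data known. Each gene was represented by the transcript cluster, the array's unit for a gene, that carries that symbol alone and has the highest mean over the arrays. This gave 36 of the 38 genes, out of 18302 genes with a symbol of their own. Ggt1 was measured by its probe sets (about an exon each) and not by such a cluster, and Ass1 was not analysed here.

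Each group comprised 4 embryos at stage E18.5, late in gestation, on a mixed C57Bl6 and DBA2 background, wild type in one group and wt1(+KTS) mutant, also labelled Frasier, in the other. The embryos' hearts were perfused with magnetic beads, glomeruli were pulled out with a magnet, and total RNA was hybridised to Affymetrix exon arrays. The 16 deposited samples are 2 summaries, by gene and by exon, of the same 8 arrays, so n is 4 per genotype throughout. The zygosity of the mutants and the litters and sexes of the embryos are not given in the labels. The sample codes end in a letter of unstated meaning, which 3 arrays share within each genotype and which never occurs in both genotypes, so genotype and letter cannot be told apart.

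The proximal tubule is the first segment after the glomerular filter. Its cells take filtered proteins back by receptor-mediated endocytosis, recover sugar, phosphate, amino acids and bicarbonate with apical carriers driven by the sodium gradient, and release them through basolateral carriers. They also make glucose and burn fatty acids, and nuclear receptors such as HNF4A are known to switch these genes on as the tubule matures. A bead preparation is meant to hold glomeruli, whose cells are podocytes, endothelium and mesangium, so the genes described here are not genes that define the labelled tissue. Their signals come from bulk RNA, in which fewer cells of a type and less RNA per cell cannot be told apart.

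The stretches before the transcription start of several members are shown because the members are known as a set controlled by shared factors, and the first 4 belong to genes that were lower in the mutants. Each line gives the 250 bases before the annotated start, 5′ to 3′ on the gene's own strand, from the RefSeq promoter table of build GRCm38.p6. Capitals mark CAAAGNNCA, letters of the HNF4 recognition sequence, read on either strand.
Acsm1, chr7:119617562-119617811, plus strand: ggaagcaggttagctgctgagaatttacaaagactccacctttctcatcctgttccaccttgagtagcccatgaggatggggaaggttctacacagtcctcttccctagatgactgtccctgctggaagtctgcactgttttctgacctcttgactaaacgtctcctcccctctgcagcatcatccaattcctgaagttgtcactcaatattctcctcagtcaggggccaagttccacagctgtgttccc
Dpep1, chr8:123185985-123186234, plus strand: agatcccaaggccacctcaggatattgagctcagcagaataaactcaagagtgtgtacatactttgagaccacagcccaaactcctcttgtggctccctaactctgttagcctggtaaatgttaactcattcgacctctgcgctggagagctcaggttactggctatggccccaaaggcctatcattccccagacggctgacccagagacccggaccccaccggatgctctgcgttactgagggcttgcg
Slc34a1, chr13:55399398-55399647, plus strand: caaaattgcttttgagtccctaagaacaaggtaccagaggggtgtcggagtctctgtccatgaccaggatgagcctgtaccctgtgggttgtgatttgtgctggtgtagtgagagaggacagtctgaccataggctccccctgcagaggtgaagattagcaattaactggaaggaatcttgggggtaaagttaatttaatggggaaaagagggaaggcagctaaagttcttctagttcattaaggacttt
Slc13a3, chr2:165473198-165473447, minus strand: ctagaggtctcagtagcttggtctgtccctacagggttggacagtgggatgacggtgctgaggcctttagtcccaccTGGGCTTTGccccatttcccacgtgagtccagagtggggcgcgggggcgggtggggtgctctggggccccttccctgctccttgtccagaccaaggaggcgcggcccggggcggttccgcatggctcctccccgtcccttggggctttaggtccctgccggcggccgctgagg
Lrp2, chr2:69586030-69586279, minus strand: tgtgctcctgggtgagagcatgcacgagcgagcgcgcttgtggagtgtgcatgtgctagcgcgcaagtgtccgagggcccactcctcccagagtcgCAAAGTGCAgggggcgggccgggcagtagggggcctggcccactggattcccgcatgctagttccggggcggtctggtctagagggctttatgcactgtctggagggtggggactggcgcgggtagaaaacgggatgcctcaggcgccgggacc
G6pc, chr11:101367466-101367715, plus strand: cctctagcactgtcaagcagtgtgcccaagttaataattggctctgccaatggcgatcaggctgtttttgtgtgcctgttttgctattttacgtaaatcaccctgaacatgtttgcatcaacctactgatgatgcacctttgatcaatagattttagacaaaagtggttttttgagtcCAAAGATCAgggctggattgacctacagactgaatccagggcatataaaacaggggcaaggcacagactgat

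Of the 38 members, 34 had a promoter window in that table, each of 300 bases, from 250 before to 50 after a start. The HNF4 letters occurred in a window of 13 of them (38.2%), against 7.27% of the 27025 genes in the table and 10 of 71 other proximal tubule genes (14.1%). In Slc13a3 they lie 173 bases before the start on the opposite strand and in Lrp2 154 bases before it. Slc3a1, a chain of the cystine carrier, has 3 matches, and Pdzk1 has CAAAGTCCA shortly after the start. The match was not limited to members that differed between the genotypes: 2 of 5 called members with a window had it (Pdzk1 and Slc13a3) and so did 11 of 27 that were not called. A GC-rich sequence bound by WT1, GTGGGNG, occurred in 10 of 34 members (29.4%), 34.3% of all genes and 32 of 71 other proximal tubule genes (45.1%). It overlapped the HNF4 letters in 0 of the members' 49 windows. These are matches of letters and no measurement of binding.

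Across the set, mutant glomerular RNA carried less of some proximal tubule transcripts. Of the 36 measured members, 6 were lower and 0 were higher in the mutants in limma's moderated test (adjusted p under 0.05 over all 93623 clusters, here a call). The 6 were the acyl-CoA synthetase Acsm1, the dicarboxylate carrier Slc13a3, the dipeptidase Dpep1, the scaffold Pdzk1, the phosphate carrier Slc34a1 and the glucose carrier Slc5a2. Over all genes with their own symbol, 0.601% were called lower and 0.847% higher. The members' median difference, mutant minus wild type, was −0.33 on the log2 scale, in a range of −1.79 to 0.69, beside a median of 0.03 over all such genes. In sign alone, 29 members were lower (43.4% of all genes) and 7 higher. At an unadjusted p under 0.05, 15 members were lower (5.78% of all genes) and 1 higher (10.8% of all genes). The genotypes did not overlap for 11 members with the mutants lower (5.58% of all genes) and for 1 with the mutants higher (11.9% of all genes). The count of 6 depended on single arrays: it was 2 without wild-type replicate 2 or mutant replicate 3, and 3 without wild-type replicate 1, wild-type replicate 3 or mutant replicate 1. Lower calls over all 93623 clusters fell too, from 459 to 155 without wild-type replicate 2 and to 160 without mutant replicate 3. With the code letters fitted as a random block the members' count was 2, Acsm1 and Dpep1, and 140 clusters were called lower. With the replicate number as a block the members' count was 1, Acsm1, and 107 clusters were called lower. The labels give that number no shared meaning.

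**Figure D1:**
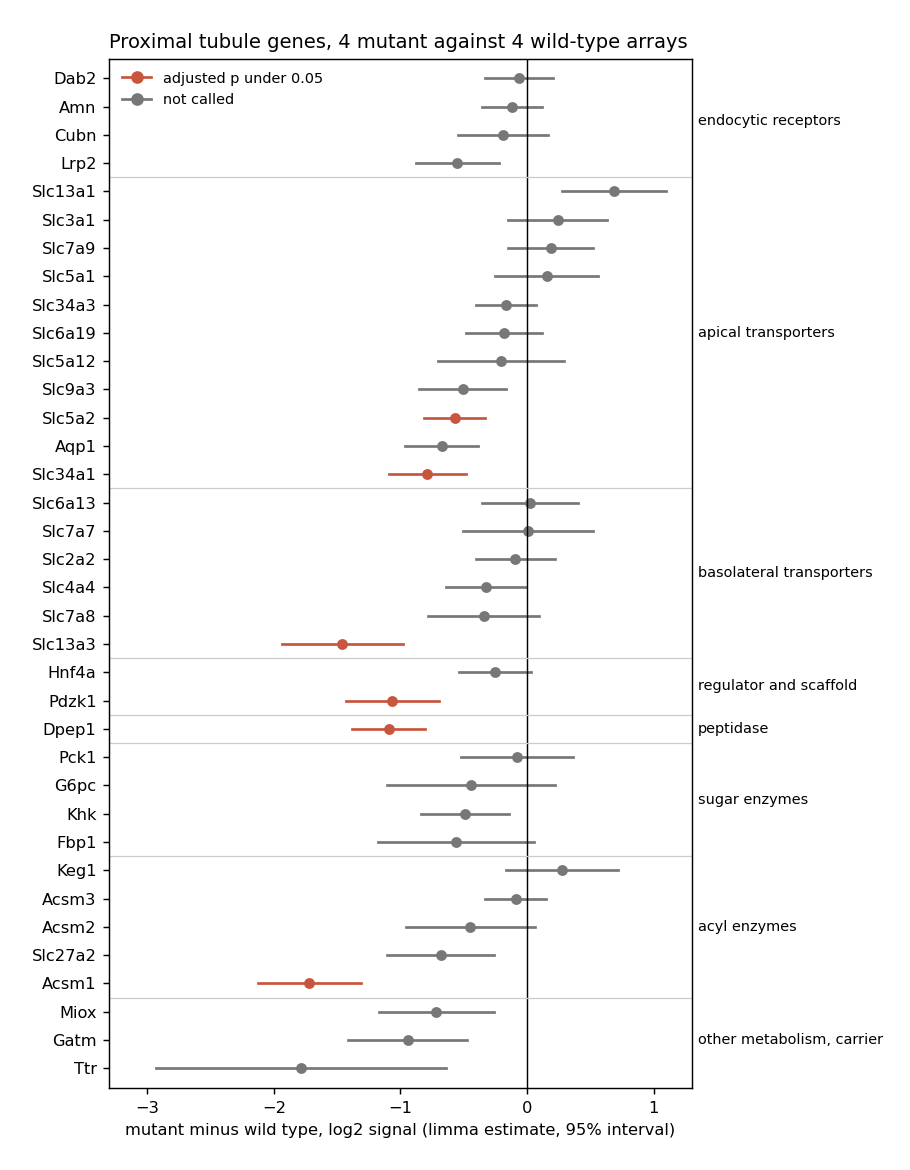
Difference in log2 signal, mutant minus wild type, for the 36 measured members, grouped by role, with limma's 95% intervals from 4 arrays per genotype. The 6 called members, in red, lie between −1.72 (Acsm1) and −0.57 (Slc5a2), and the widest interval belongs to Ttr.

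Protein uptake was described by 4 members. Lrp2, which encodes megalin, the large endocytic receptor of the brush border, stood at 11.07, 11.18, 11.13 and 10.74 in wild-type replicates 1 to 4 and at 10.42, 10.73, 10.50 and 10.27 in mutant replicates 1 to 4. The lowest wild-type array and the highest mutant array nearly met, and the groups did not overlap. The difference of −0.55 ± 0.15 (SE) was not called (adjusted p = 0.133, limma). Cubn, which encodes cubilin, megalin's partner for vitamin B12 and albumin, read 10.60, 10.90, 10.85 and 10.34 in the wild type and 10.49, 10.74, 10.42 and 10.30 in the mutants, with the groups interleaved. Its difference was −0.19, with a 95% interval of −0.54 to 0.17. The values of both receptors were taken from the same arrays, so their gap can be read within each array: Lrp2 minus Cubn averaged 0.36 ± 0.094 (SD, n = 4) in the wild type and −0.01 ± 0.062 in the mutants, with no overlap. Amn, which anchors cubilin in the membrane, and Dab2, the adaptor of both receptors, differed by −0.12 and −0.06 and were not called.

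The apical transporters held 11 members, of which 2 fell, 0 rose and 9 were not called, with a median of −0.19. Slc34a1, the main sodium-phosphate cotransporter of the brush border, read 10.41, 10.54, 10.54 and 10.50 in the wild type and 9.73, 10.03, 9.60 and 9.49 in the mutants. The wild-type arrays lay within a narrow band that every mutant array missed from below. In log2 units Slc34a1 fell by 0.79 ± 0.13 (SE, n = 4 per genotype), 1.73-fold (limma adjusted p = 0.0353), and leaving out 1 array at a time ended that call in 7 of 8 cases, with adjusted p up to 0.117. Slc5a2, the sodium-glucose cotransporter SGLT2 that takes up most filtered glucose, read 6.39, 6.47, 6.44 and 6.20 in the wild type and 5.83, 5.76, 5.81 and 5.80 in the mutants. These signals sit near the arrays' medians of 5.99 to 6.18, where dim probes compress differences, and the mutant arrays were nearly identical. Slc5a2 fell by 0.57 ± 0.11, 1.49-fold (limma adjusted p = 0.0482), and lost its call in 7 of 8 cases with 1 array left out, with adjusted p up to 0.155.

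Among the apical members that were not called, Aqp1, the water channel of the proximal tubule and descending limb, came closest. It read 8.43, 8.66, 8.70 and 8.26 in the wild type and 7.88, 7.90, 7.84 and 7.74 in the mutants, with no overlap, a difference of −0.67 and an adjusted p of 0.0514 in limma. Slc9a3, the sodium-proton exchanger NHE3, was also separated, from 8.45 to 8.53 in the wild type and from 7.52 to 8.16 in the mutants (−0.51, adjusted p = 0.181). Slc13a1, the apical sodium-sulfate cotransporter, went the other way. It read 7.55, 8.07, 7.86 and 8.06 in the wild type and 8.23, 8.88, 8.79 and 8.41 in the mutants, so that every mutant array stood above every wild-type array. The difference was 0.69 ± 0.18 (SE), not called at the gene level (limma adjusted p = 0.134). The remaining 6 apical members lay between −0.21 and 0.24 with overlapping groups: Slc3a1 and Slc7a9, the 2 chains of the cystine carrier, at 0.24 and 0.19, the glucose carrier Slc5a1 at 0.15, the phosphate carrier Slc34a3 at −0.17, the neutral amino acid carrier Slc6a19 at −0.19 and the lactate carrier Slc5a12 at −0.21.

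**Figure D2:**
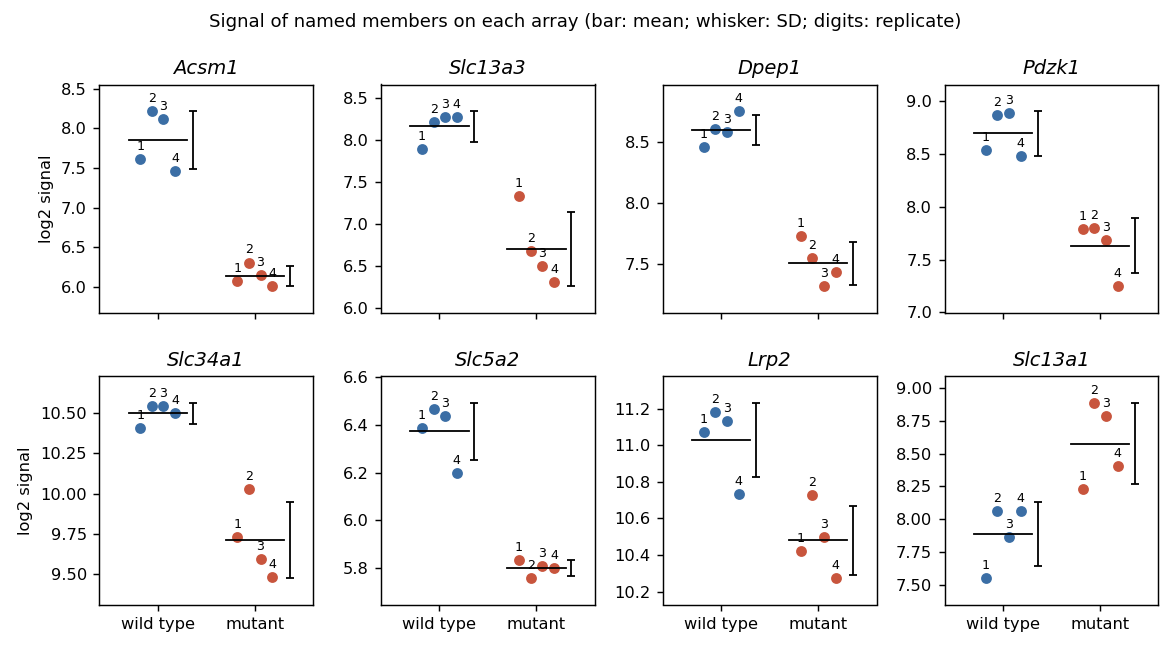
Log2 signal of 8 members on each array, wild type in blue and mutant in red, with the replicate number at each point, the mean as a bar and the SD as a whisker (n = 4 per genotype). The genotypes do not overlap in any of the 8 panels. Slc13a1 is the panel with the mutants higher, and each panel has its own axis.

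On the basolateral side 1 of 6 members fell and 0 rose. Slc13a3, the sodium-dicarboxylate cotransporter that takes up succinate and related acids from blood, read 7.89, 8.21, 8.28 and 8.27 in the wild type and 7.33, 6.68, 6.50 and 6.30 in the mutants. Mutant replicate 1 lay closest to the wild type and the other mutant arrays lower still. In log2 units Slc13a3 fell by 1.46 ± 0.21 (SE, n = 4 per genotype), 2.75-fold (limma adjusted p = 0.0180). It lost its call in 3 of 8 cases with 1 array left out, with adjusted p up to 0.0671. Slc4a4, the sodium-bicarbonate cotransporter through which reclaimed bicarbonate leaves the cell, read 9.65, 9.80, 9.83 and 9.49 in the wild type and 9.26, 9.66, 9.37 and 9.18 in the mutants. The groups overlapped and the difference of −0.32 was not called (adjusted p = 0.340). The amino acid exchangers Slc7a8 (−0.34) and Slc7a7 (0.01), the glucose carrier Slc2a2 (−0.09) and the GABA and taurine carrier Slc6a13 (0.02) were not called.

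Pdzk1, the scaffold that holds carriers such as Slc34a1 at the brush border, was another member that fell. It read 8.54, 8.87, 8.89 and 8.48 in the wild type and 7.79, 7.80, 7.68 and 7.25 in the mutants. The groups were separated by more than the range within either, and Pdzk1 fell by 1.06 ± 0.16 (SE, n = 4 per genotype), 2.09-fold (limma adjusted p = 0.0225). Without 1 array at a time the call was lost in 6 of 8 cases, with adjusted p up to 0.0838. Hnf4a, the nuclear receptor whose letters are marked in the sequences above, read 9.61, 9.71, 9.72 and 9.78 in the wild type and 9.70, 9.51, 9.37 and 9.24 in the mutants. Mutant replicate 1 lay inside the wild-type range, and the difference of −0.25 (95% interval −0.54 to 0.03) was not called (adjusted p = 0.409).

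Dpep1, a membrane dipeptidase of the brush border that cleaves cysteinyl-glycine and leukotriene D4, read 8.46, 8.60, 8.58 and 8.76 in the wild type and 7.73, 7.55, 7.31 and 7.43 in the mutants. Every mutant array was well below every wild-type array. Dpep1 fell by 1.09 ± 0.13 (SE, n = 4 per genotype), 2.13-fold (limma adjusted p = 0.00686), and kept its call in 8 of 8 cases with 1 array left out. With the replicate number as a block it was not called (limma adjusted p = 0.0580). Ggt1, the gamma-glutamyltransferase that acts before it in glutathione breakdown, could be read as the mean of its 21 probe sets. That mean was 10.39, 10.37, 10.53 and 10.17 in the wild type and 10.04, 10.07, 9.81 and 9.33 in the mutants. The groups did not overlap, and the difference of −0.55 ± 0.16 was not called (adjusted p = 0.0526 in a limma fit to probe-set means).

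The 4 enzymes of sugar metabolism had a median of −0.47, and 0 of them passed the test. Khk, ketohexokinase, the first enzyme of fructose use, read 6.99, 7.52, 7.48 and 7.51 in the wild type and 7.08, 6.84, 6.92 and 6.70 in the mutants. Wild-type replicate 1 fell among the mutant arrays, and the difference of −0.49 was not called (limma adjusted p = 0.200). Fbp1, fructose-bisphosphatase of gluconeogenesis, read 10.06, 10.48, 10.55 and 10.44 in the wild type and 10.54, 10.09, 9.48 and 9.18 in the mutants, a spread over more than 1 log2 unit within the mutants (−0.56, adjusted p = 0.397). G6pc, glucose-6-phosphatase, which releases free glucose, differed by −0.44 with an interval of −1.10 to 0.22. Pck1, phosphoenolpyruvate carboxykinase, the entry step of gluconeogenesis, differed by −0.08 with an interval of −0.52 to 0.37. These intervals leave room for changes in either direction.

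Acsm1, a mitochondrial medium-chain acyl-CoA synthetase, had the smallest p of the members, and 1 of the 5 genes of acyl-CoA and acyl transfer fell. It read 7.62, 8.22, 8.11 and 7.47 in the wild type and 6.07, 6.31, 6.15 and 6.01 in the mutants. The mutant arrays lay close together at about the level of the array medians, over a log2 unit below the lowest wild-type array. Acsm1 fell by 1.72 ± 0.18 (SE, n = 4 per genotype), 3.29-fold (limma adjusted p = 0.00434), and kept its call in 8 of 8 cases with 1 array left out. The deposited files mark no background level, so a mutant signal this dim may understate the fold. Slc27a2, a very long-chain acyl-CoA synthetase and fatty acid transport protein, read 9.54, 9.89, 9.91 and 9.39 in the wild type and 9.25, 9.23, 8.98 and 8.55 in the mutants. The groups did not overlap, and the difference of −0.68 was not called (adjusted p = 0.149). Acsm2 and Acsm3, relatives of Acsm1, differed by −0.45 and −0.09, and Keg1, a glycine acyltransferase-like gene, by 0.28, with overlapping groups and no call. Acsm3 averaged 6.18 in the wild type and 6.09 in the mutants, close to the array medians, where a fall would be compressed. Probe sequences were not used here, so signal shared between Acsm genes of similar sequence cannot be told apart.

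The other metabolic members were lower in sign, with 0 called. Gatm, which makes the creatine precursor guanidinoacetate, read 11.43, 11.55, 11.58 and 11.11 in the wild type and 10.56, 11.03, 10.21 and 10.09 in the mutants. The groups were separate by a small margin, and the difference was −0.94 ± 0.21 (SE; limma adjusted p = 0.0841). Miox, myo-inositol oxygenase, read 8.40, 8.88, 9.24 and 8.62 in the wild type and 7.96, 8.43, 8.11 and 7.78 in the mutants, with mutant replicate 2 just above wild-type replicate 1 (−0.72, adjusted p = 0.158). Ttr, transthyretin, a carrier of thyroid hormone and of retinol-binding protein that is best known from liver and choroid plexus, read 8.68, 9.89, 9.85 and 10.08 in the wild type and 9.04, 8.15, 7.77 and 6.41 in the mutants. Its difference of −1.79 ± 0.51 was the largest in the set, its spread within the genotypes was also wide, and it was not called (adjusted p = 0.161).

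Gaps between related members were read within each array for 6 pairs chosen after their values were seen and are therefore given without a test. Slc13a3 minus Slc13a1 went from 0.27 ± 0.12 (SD, n = 4) in the wild type to −1.87 ± 0.65 in the mutants, a change of −2.15. Acsm1 minus Acsm2 changed by −1.27, Slc5a2 minus Slc5a1 by −0.73 and Slc34a1 minus Slc34a3 by −0.62. Slc34a3 read 6.20 to 6.52 over both genotypes, close to the array medians, where a fall of its own would be compressed, so that gap does not show that the 2 phosphate carriers changed unequally. Slc5a2, and Acsm1 in the mutants, also read near those medians, so their changes may be compressed. In wild-type replicate 1 Slc5a1 stood at 8.45, against 9.11 to 9.14 in the other wild-type arrays, which enlarges the change of its pair. In these pairs, and in Lrp2 and Cubn above, the genotypes did not overlap. Slc3a1 minus Slc7a9, the chains of 1 carrier, changed by 0.06 and overlapped. Such gaps compare how the members differed between genotypes and say nothing of their relative amounts.

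**Figure D3:**
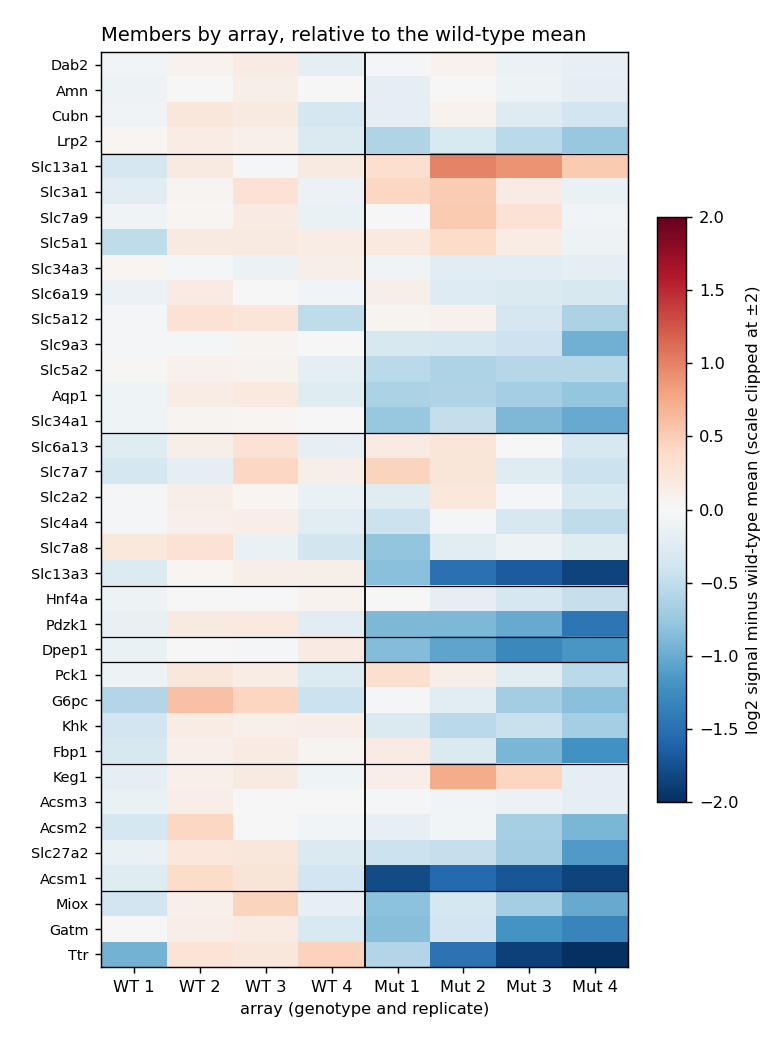
Log2 signal of the 36 measured members on each array minus the member's wild-type mean, with members in rows by role and arrays in columns, blue for lower and red for higher. Acsm1, Slc13a3, Dpep1 and Pdzk1 are blue on the 4 mutant arrays, Slc13a1 is red on them, and mutant replicate 4 holds the lowest mutant value for 30 of 36 members.

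The embryos differed in the level of the set as a whole. The mean over the 36 members was 8.53, 8.85, 8.85 and 8.61 in wild-type replicates 1 to 4 and 8.43, 8.49, 8.25 and 8.00 in mutant replicates 1 to 4. The gap between wild-type replicate 1 and mutant replicate 2 was thus small next to the range within either genotype. Mutant replicate 4 was the lowest of the mutant arrays for 30 of 36 members, and mutant replicates 1 and 2 were the highest for 15 and 20. In the wild type, replicate 1 was lowest for 20 members and replicate 4 for 15. The endocytic receptors, apical transporters and sugar enzymes overlapped between genotypes in their group means, and the basolateral transporters, acyl enzymes and other metabolic genes did not. Gene by gene, 5 of 6 basolateral, 3 of 5 acyl and 2 of 3 other metabolic members overlapped. The basolateral and acyl means each include 1 called gene, Slc13a3 (−1.46) and Acsm1 (−1.72), so their separation does not describe the whole group. Wild-type replicate 4 also stood apart over all genes, where its correlations to the other arrays were 0.940 to 0.969. Without it the count of called members was again 6, which need not be the same members. Aqp1 and Gatm, not called on all arrays, were each called in 1 of 8 cases with 1 array left out.

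**Figure D4:**
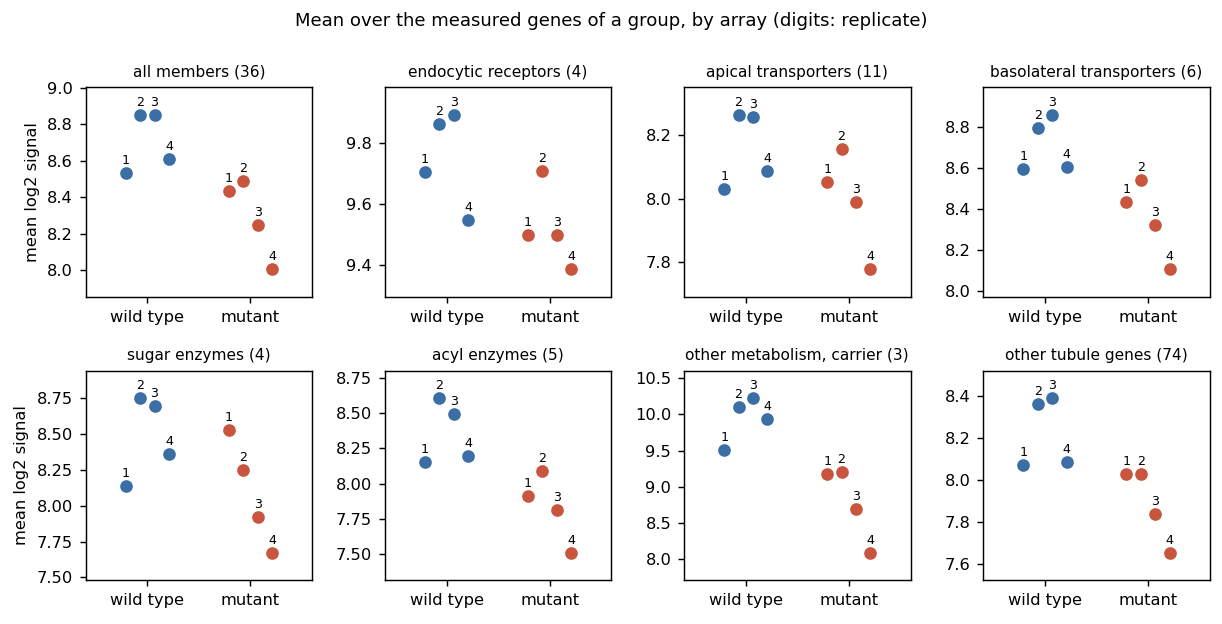
Mean log2 signal over all measured members, over each role group with 3 or more measured genes, and over 74 other proximal tubule genes, on each array, with the replicate number at each point and the number of genes in each title. Mutant replicate 4 is the lowest array in every panel shown, and the axes differ between panels.

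The pattern was compared with 88 other proximal tubule genes outside the members, of which 74 were measured. In that list 5 genes were called lower and 0 higher, 54 were lower in sign (43.4% of all genes), and the median difference was −0.25. Slc17a3, a carrier of phosphate and urate, fell by 1.57 on the log2 scale (2.97-fold, limma adjusted p = 0.0198), and Mep1b, the beta subunit of the brush-border protease meprin, fell by 1.29 (adjusted p = 0.0180). Cyp4b1, a cytochrome P450, fell by 1.29 (adjusted p = 0.00309), Dmgdh, dimethylglycine dehydrogenase, fell by 1.01 (adjusted p = 0.0226) and Prodh2, hydroxyproline dehydrogenase, fell by 0.86 (adjusted p = 0.0120). The next by p were not called: Slc6a20b at −1.02, Enpep at −0.50, the urate exchanger Slc22a12 at −0.68 and Cyp2e1 at −1.30, with adjusted p from 0.0606 to 0.0659. The mean over these 74 genes was 8.07 to 8.39 in the wild type and 7.65 to 8.03 in the mutants. The count of 5 was 1 without wild-type replicate 2 or mutant replicate 3, 3 without wild-type replicate 3, mutant replicate 2 or mutant replicate 4, and 18 when only clusters with 1 symbol were tested. In that last setting 518 of all 20707 clusters were called lower.

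Markers of the other cells a glomerular preparation may hold moved as well, and their part in the members' results was not tested. Of 13 podocyte markers measured, 4 were called lower (Thsd7a, Ptpro, Clic5 and Cdkn1c), the slit-diaphragm gene Nphs1 differed by −0.48 and Podxl by −0.29, and the list's mean ran from 8.62 to 8.82 in the wild type and from 8.04 to 8.29 in the mutants. For the glomerular endothelium 1 of 13 was called lower (Ehd3), and Kdr, Pecam1 and Cdh5 differed by −0.61, −0.31 and −0.12. The endothelial mean ran from 8.90 to 9.09 in the wild type and from 8.58 to 8.65 in the mutants. In sign 12 of the 13 podocyte genes and 13 of the 13 endothelial genes were lower (43.4% of all genes). Their medians were −0.31 and −0.35, beside −0.33 for the members. The genotypes did not overlap, with the mutants lower, for 8 and 11 of them (5.58% of all genes). Among 9 mesangial and pericyte genes 0 were called, 5 were lower and 4 higher in sign, with Pdgfrb, Des and Gata3 at −0.23, −0.32 and −0.43 and Tagln, named after its value was seen, at 0.69 without overlap. Later nephron segments had 1 of 14 called, Hsd11b2, which rose by 0.79. In sign 11 of the 14 were lower and 3 higher, with a median of −0.16. Umod, Slc12a1 and Slc12a3 differed by −0.41, −0.21 and −0.15. The mean over the 14 ran from 8.69 to 8.87 in the wild type and from 8.46 to 8.87 in the mutants. Of 10 nephron progenitor genes 5 rose, Eya1, Meox2, Six2, Crym and Uncx, by 0.60 to 1.20, while Cited1 differed by −0.02, and the mean ran from 7.15 to 7.23 and from 7.65 to 7.83. Of 10 parietal epithelial genes 2 rose (Krt19 and Cd44), with Cldn1, Pax8 and Pax2 at 0.45, 0.37 and 0.29. In sign 10 of the 10 were higher, as were 10353 of all 18302 genes. The parietal mean ran from 8.32 to 8.62 in the wild type and from 8.99 to 9.20 in the mutants. Among 8 leukocyte genes 0 were called, with 5 lower and 3 higher in sign. The first 3, Ptprc, Csf1r and Cd53, differed by −0.24, −0.44 and −0.43 without overlap, and the other 5 overlapped. The leukocyte mean also overlapped, from 6.58 to 6.80 in the wild type and from 6.40 to 6.58 in the mutants. Among 5 erythroid genes 0 were called, and the first 3 markers of that list, all globins, were not analysed here.

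Several members, Ttr among them, are also made in liver. Of 11 hepatocyte genes measured 1 was called, the fibrinogen chain Fgb, which fell by 1.00 (limma adjusted p = 0.0117). Albumin (Alb) read 5.20, 7.52, 5.14 and 5.43 in the wild type and 5.47, 5.17, 5.32 and 5.22 in the mutants, so that its difference of −0.53 rested on wild-type replicate 2 alone. Afp averaged 8.69 in both genotypes, well above the array medians, and neither gene was called. The hepatocyte mean ran from 6.16 to 6.53 in the wild type and from 6.03 to 6.29 in the mutants.

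Chromosome 2 carries Wt1 and 10 of the members, and embryos of 2 mixed strains can differ around a mutated locus. Of its 9 measured members, 9 were lower in sign (43.4% of all genes) and 1 was called, with a median of −0.25. The 27 measured members elsewhere had 20 lower in sign and 5 called, with a median of −0.34. The strain of the alleles around Wt1 was not tested.

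The probe sets of the exon level show in how many of a member's measured parts a difference is seen. They come from the same arrays and are no independent evidence. In 655 probe sets of 37 members, 83 (12.7%) were called lower and 6 (0.916%) higher, beside 1.22% and 2.35% of all probe sets with 1 symbol. Of the 83, most belonged to a few genes: 14 of the 16 probe sets of Slc13a3 were called lower, 11 of 14 of Acsm1, 10 of 11 of Dpep1, 9 of 13 of Gatm, 9 of 17 of Pdzk1 and 7 of 11 of Aqp1. In Slc13a3 the median of the 16 was −1.89 and the lowest −2.93, and in Acsm1 the median of the 14 was −2.26, both larger than the gene-level differences. Of the probe sets of smallest p, that of Slc13a3 fell by 1.40 (adjusted p = 0.00336), that of Acsm1 fell by 2.26 (adjusted p = 0.000532) and that of Dpep1 fell by 1.86 (adjusted p = 0.000469). The corresponding differences were −1.53 for Gatm (adjusted p = 0.00166), −0.99 for Aqp1 (adjusted p = 0.00587), −1.32 for Slc5a2 (4 of 12 called, adjusted p = 0.00449) and −0.90 for Slc34a1 (3 of 13 called, adjusted p = 0.0363).

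The probe sets of Pdzk1 were uneven, from −2.28 to −0.27, as were those of Slc13a3 (−2.93 to −0.46) and Acsm1 (−2.69 to −0.64). Their positions along the transcripts were not used. All 17 probe sets of Pdzk1 were lower in sign, 9 were called, 2 of these differed by −2.20 and −2.28 and the others by −1.46 to −0.65. Probe set 4509708 read 8.24, 8.12, 8.38 and 7.52 in the wild type and 5.82, 6.15, 5.82 and 5.65 in the mutants. Lrp2, with 94 probe sets, had 5 called lower and 92 lower in sign, and Cubn, with 75, had 0 called. Ggt1 had 4 of 21 called, led by 1 that fell by 0.96 (adjusted p = 0.0240). Slc27a2 had 2 of 14, led by one at −1.04, and single probe sets were called lower in Hnf4a (−0.71, of 15), Khk (−0.78, of 8), Pck1 (−0.72, of 16) and Ttr (−1.93, of 6). Calls in the other direction came from 2 members. Slc13a1 was higher in sign in 19 of 19 probe sets and called in 5, with 7.46, 8.07, 8.57 and 7.83 in the wild type and 9.20, 10.12, 9.96 and 9.79 in the mutants for the one of smallest p, which rose by 1.79 (adjusted p = 0.00997). Slc4a4 was the single member called both ways, in 1 probe set that fell by 1.04 and 1 that rose by 1.17 (adjusted p = 0.0179) among 35.

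**Figure D5:**
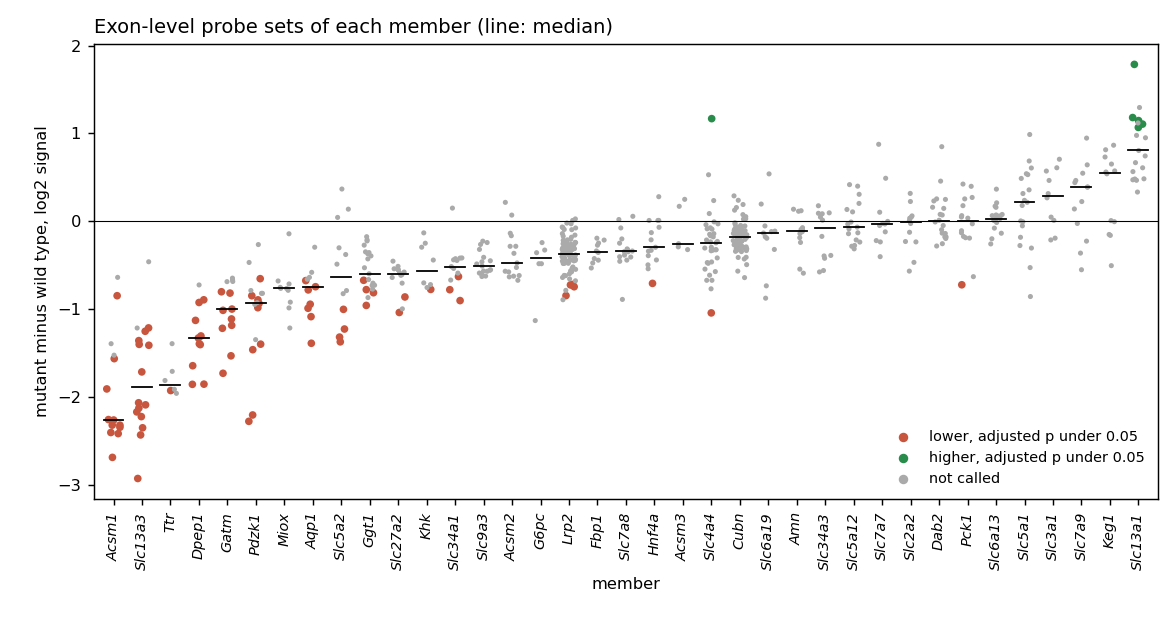
Difference in log2 signal, mutant minus wild type, for the 655 probe sets of 37 members, with members ordered by their median, shown as a line. Probe sets called lower are red, called higher green and the rest grey. Most probe sets of Acsm1, Slc13a3 and Dpep1 are red, and the green points belong to Slc13a1 and to 1 probe set of Slc4a4.

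When each gene was instead taken as the mean of its probe sets with 1 symbol, 10 of 37 members were called lower and 1 higher, against 3.0% and 8.35% of 18513 genes. The 6 called at the gene level were called again. The 4 others were Aqp1 (−0.80, adjusted p = 0.00171), Gatm (−1.01, adjusted p = 0.00590), Slc27a2 (−0.66, adjusted p = 0.0342) and Ttr (−1.79, adjusted p = 0.0457, groups overlapping). The member that rose was Slc13a1, by 0.86 (adjusted p = 0.0278). In 35 of 36 members both summaries had the same sign, with Dab2, near 0, as the exception. The summaries differ in which probe sets enter and in the number of rows adjusted over. For Ttr the gene-level values equalled the mean of its 6 probe sets within 0.001, and the same difference of −1.79 was not called in one table and called in the other.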

How the data were processed

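Both tables hold log2 values that the authors deposited after RMA (background correction, quantile normalization and probe summary) in Partek, with mm9 as the build, per the submitters' processing notes. No version is stated there, and the log base was inferred from the range of values. RMA compresses differences of dim probes. Array medians were 5.99 to 6.18 over clusters and 6.76 to 6.88 over probe sets. The number of arrays limits the precision.

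Symbols came from the platform annotation, updated through RefSeq names. Of 93623 clusters 20707 had 1 symbol, 1349 several and 71567 none, and of 375483 probe sets 192914 had 1, 1399 several and 181170 none. Rows without exactly 1 symbol stayed in the tests unnamed. Where 15497 genes had 1 such cluster and named probe sets, the cluster equalled the mean of those probe sets within 0.001 in 23.2%.

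Mutant minus wild type was fitted with limma 3.58.1 in R 4.3.3 (lmFit, eBayes, two-sided), adjusting p by Benjamini-Hochberg across the whole table, with a threshold of 0.05 and no filter or covariate. P-values measure the spread between embryos. Values per array are given for every called member and for the 2 members of smallest p in each role group. The rule also names every called gene of the comparison lists, up to 4 others of smallest p among the other proximal tubule genes, the first 3 markers of each cell type where measured, and the probe set of smallest p of each member with a call. Slc9a3, Aqp1, Slc13a1, Ttr and Ggt1 are described beyond that rule, chosen after their values were seen. Members and lists were chosen with earlier results of these data known. In a simulation of the gene table (93623 rows), 50 randomly drawn rows were lowered at each size and the rest had no change. The test called 2% of the rows given a 1.5-fold change, 54% at 2-fold and 84% at 4-fold. These shares are averages over rows drawn without regard to brightness and do not give the test's power for the members. Alternatives changed the rows tested, the scaling, the variance model, the blocks, the summary of a gene and the arrays used.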

Additional observations from a re-analysis of the deposited data

Results flagged for a closer look

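Each member's 4 values per genotype were checked for an array far from the other 3, and 5 of 72 groups had one (6.94%). Chance gives about 1 in 20 groups. Slc9a3 stood at 7.52 in mutant replicate 4, against 8.07 to 8.16 in the other mutants. Slc6a19 stood at 6.63 in mutant replicate 1, against 6.19 to 6.25 in the other mutants. Wild-type replicate 1 was low for 3 members: Slc5a1 stood at 8.45 against 9.11 to 9.14 in the other wild-type arrays, Ttr at 8.68 against 9.85 to 10.08, and Khk at 6.99 against 7.48 to 7.52. For these 5 members no gene-level difference was called.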

How the results depend on the processing

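The count of members called lower was 6 and ran from 2 to 6 with 1 array left out, was 2 with the letter as a random block (consensus correlation 0.174), 3 with the 3 arrays of the shared letter per genotype (chosen after seeing the data), 10 for probe-set means and 12 for the mean of all clusters of a symbol. The count called higher was 0, and 1 (Slc13a1) in the last 2 of these and when clusters with 1 symbol alone were tested. In that last setting 9 members were called lower, among them Aqp1 (adjusted p = 0.00773), Gatm (0.0249) and Lrp2 (0.0342). Centring the arrays left 4, without Slc34a1 (0.0584) and Slc5a2 (0.102). The median difference ran from −0.42 to −0.25 with 1 array left out. The 6 called members kept their sign in 19 of 19 settings. Other proximal tubule genes called lower, 5 in the report, numbered 18 with 1-symbol clusters, 11 with rows at or above the median row, 10 with trend and robust options, 8 with array weights, 2 with the letter block, 18 for means of clusters, 22 for probe-set means and 1 to 7 with 1 array left out; those called higher, 0 in the report, were 1, 1 and 4 with 1-symbol clusters, means of clusters and probe-set means. Probe sets called lower, 83, were 33 with the letter block, 55 with the shared letter and 34 to 75 with 1 array left out; those called higher, 6, were 10 above the median row, 2 with the letter block and 2 to 8 with 1 array left out. The cause of these moves was not tested, except that fewer rows are adjusted over where rows are dropped or summarised. With the replicate number as a block, 1 member was called lower (Acsm1, adjusted p = 0.0300), 1 other proximal tubule gene and 71 probe sets. The numbers pair the samples by nothing in the labels, and same-numbered arrays deviated together with correlations of 0.0051, 0.168, 0.284 and 0.257. Arrays of different numbers had correlations of −0.305 to 0.166, and what same-numbered arrays may share was not tested. The sign turned for 5 members that were not called: Dab2 with probe-set means (0.049), Slc6a13 and Slc7a7 with the shared letter (−0.079 and −0.098), and with 1 array left out Slc5a1 (−0.015 to 0.24), Slc6a13 (−0.058 to 0.14), Slc7a7 (−0.14 to 0.15) and Pck1 (−0.21 to 0.072).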
